A study of Mus musculus with 12 samples.

Results

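The 10 genes described here take part in the making of osteoclasts, the bone-resorbing cells that form when cells of the macrophage lineage fuse. They were chosen by name for their known roles, with earlier results of these data in view, so their counts of calls are a description and not independent evidence. All 10 were found among the 32688 genes of the count table, and 8 of them held enough reads to be tested. By role they were 4 receptors and adhesion molecules (Tnfrsf11a, Oscar, Calcr and Itgb3), 1 transcription factor (Nfatc1), 3 genes needed for cell fusion (Dcstamp, Ocstamp and Atp6v0d2) and 2 secreted or lysosomal enzymes (Acp5 and Mmp9).

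An osteoclast forms when the cytokine RANKL binds its receptor RANK, encoded by Tnfrsf11a, on a macrophage-like precursor. The signal runs through TRAF6, NF-κB and AP-1, and with calcium signals from receptors that use ITAM adaptors, such as OSCAR, it switches on NFATc1, the master transcription factor of the lineage. NFATc1 activates the genes for fusion, among them Dcstamp, Ocstamp and Atp6v0d2, and those for resorption, among them Acp5, Mmp9, Calcr and Itgb3. RAW264.7 cells, a mouse macrophage line, are widely used as osteoclast precursors because RANKL makes them fuse.

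RNA was sequenced from RAW264.7 cells in 4 groups of 3 libraries. Null cells (called WT in the study's text) and CRISPR TFEB/TFE3 DKO cells, in which both transcription factor genes Tfeb and Tfe3 were disrupted with CRISPR-Cas9, were each either control cells or cells given 100 µM etoposide for 8 h. The drug traps topoisomerase II on DNA and so breaks it, and TFEB and TFE3 belong to the MiT/TFE family of regulators of lysosomes and autophagy. All groups were grown in high-glucose DMEM with 10% fetal bovine serum, and no source used here says that these libraries received RANKL or another osteoclast-inducing ligand. The controls are untreated by their labels and received DMSO by the study's methods. Each genotype was 1 cell line, so genotype and line cannot be told apart. The study's text calls the samples of each genotype independent, but no source used here says that they were separate cultures, so p-values measure the spread between these libraries, which may be in part technical.

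Libraries held 29837255 to 61809316 counts. The transcripts of the targeted genes were lower in DKO than in Null control cells but still present, at 4.40 ± 1.12 against 16.8 ± 0.286 CPM (counts scaled to a common library size) for Tfeb and 37.8 ± 5.71 against 104.5 ± 14.8 CPM for Tfe3 (mean ± SD, n = 3). After etoposide they stood at 4.34 ± 0.0894 in DKO against 7.56 ± 0.427 CPM in Null cells for Tfeb and at 37.7 ± 3.20 against 101 ± 2.02 CPM for Tfe3. The titles of the 3 DKO etoposide libraries also contain the word MEFs, for mouse embryonic fibroblasts, but 8 macrophage markers summed to 4585 to 4775 CPM in them, within the 4193 to 5132 CPM over all libraries, and 8 fibroblast markers to only 1.02 to 1.20 CPM. The same fibroblast sum was 0.646 to 0.928 CPM in Null and 0.153 to 0.263 CPM in DKO control libraries, and 1.91 to 2.04 CPM in Null cells after etoposide. The sums of 4 dendritic cell markers lay between 1.80 and 3.97 CPM. The cells are bulk cultures, in which more cells of a type and more RNA per cell cannot be told apart.

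Markers of mature osteoclasts were rare in all 4 groups. The 6 mature osteoclast markers Ctsk, Acp5, Calcr, Oscar, Mmp9 and Atp6v0d2, 5 of them among the 10 genes, together reached at most 1.299 CPM in a Null control library and 3.26 to 3.84 CPM in DKO control libraries. After etoposide they reached 2.25 to 2.53 CPM in Null and 7.31 to 8.47 CPM in DKO cells. The higher sums of DKO cells rested on Acp5, and without it the other 5 markers summed to less in DKO than in Null cells, at 0.736 to 0.793 against 1.01 to 1.13 CPM in control libraries and 1.44 to 1.68 against 1.82 to 1.95 CPM after etoposide. Those lower sums rested in turn on Mmp9. Its means were 0.296 in DKO against 0.751 CPM in Null control cells, and 1.025 against 1.449 CPM after etoposide. Atp6v0d2 went the other way, at 0.287 against 0.0651 CPM in control cells and 0.198 against 0.109 CPM after etoposide. Ctsk, Calcr and Oscar overlapped between the genotypes under both treatments. Ctsk, the gene for cathepsin K, the main collagenase of osteoclasts, had group means of 0.127 to 0.187 CPM. Tnfsf11, which encodes RANKL itself, had no read in any library except 1 read in a DKO etoposide library.

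Per kilobase of exon, the only scale on which different genes are compared here, Nfatc1 was the most abundant of the 10 and Tnfrsf11a the second in all 4 groups. Nfatc1 had mean levels of 18.4 CPM per kb in Null and 34.7 in DKO control cells, and of 16.4 and 79.2 in these genotypes after etoposide. Tnfrsf11a had 14.2 and 29.9 CPM per kb in control cells and 8.92 and 20.5 after etoposide. Dcstamp came next in 3 groups, but in DKO etoposide cells Ocstamp, at 8.99 CPM per kb, stood above Dcstamp at 4.32, and Acp5 followed at 3.07. The remaining genes stayed below 1 CPM per kb in every library, which the plot of levels per exon length shows as a gap between the leading 5 genes in DKO cells and the other 5.

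**Figure D1:**
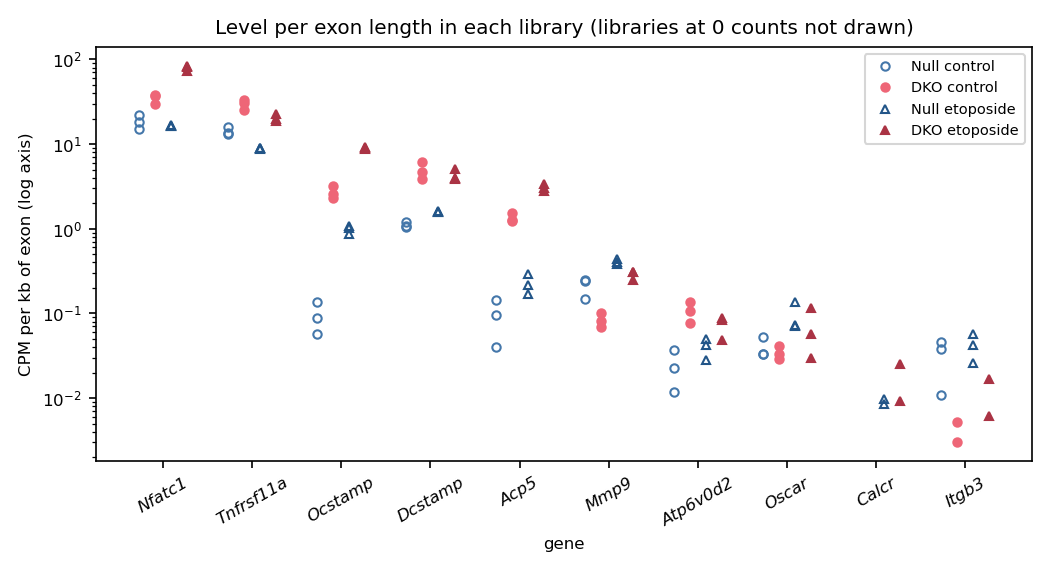
Level of each osteoclast gene per kilobase of exon (CPM per kb, log axis) in every library, with 3 points for each of the 4 groups and libraries at 0 counts not drawn. Nfatc1 and Tnfrsf11a lead in all groups, and Ocstamp climbs from below Dcstamp in Null control cells to 8.99 CPM per kb in DKO etoposide cells.

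Without etoposide, the DKO cells held more RNA of both fusion proteins, of Acp5, of RANK, of Nfatc1 and of Atp6v0d2 than Null cells, and less of Mmp9 and Itgb3. Of the 10 genes, 8 passed the filter on low counts and 8 were called (adjusted p under 0.05 in limma-trend with Benjamini-Hochberg adjustment over 18066 genes), 6 higher and 2 lower in DKO cells, where 19.3% of all genes tested were called, 10.9% higher and 8.39% lower. Without the filter the count was the same, 8 of 10. The Null and DKO libraries of these 8 genes did not overlap, as was so for 27.6% of all genes tested. Since a gene could pass the filter through the group in which it was high, the values of each gene are given below. The plot of values by library shows all 10.

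**Figure D2:**
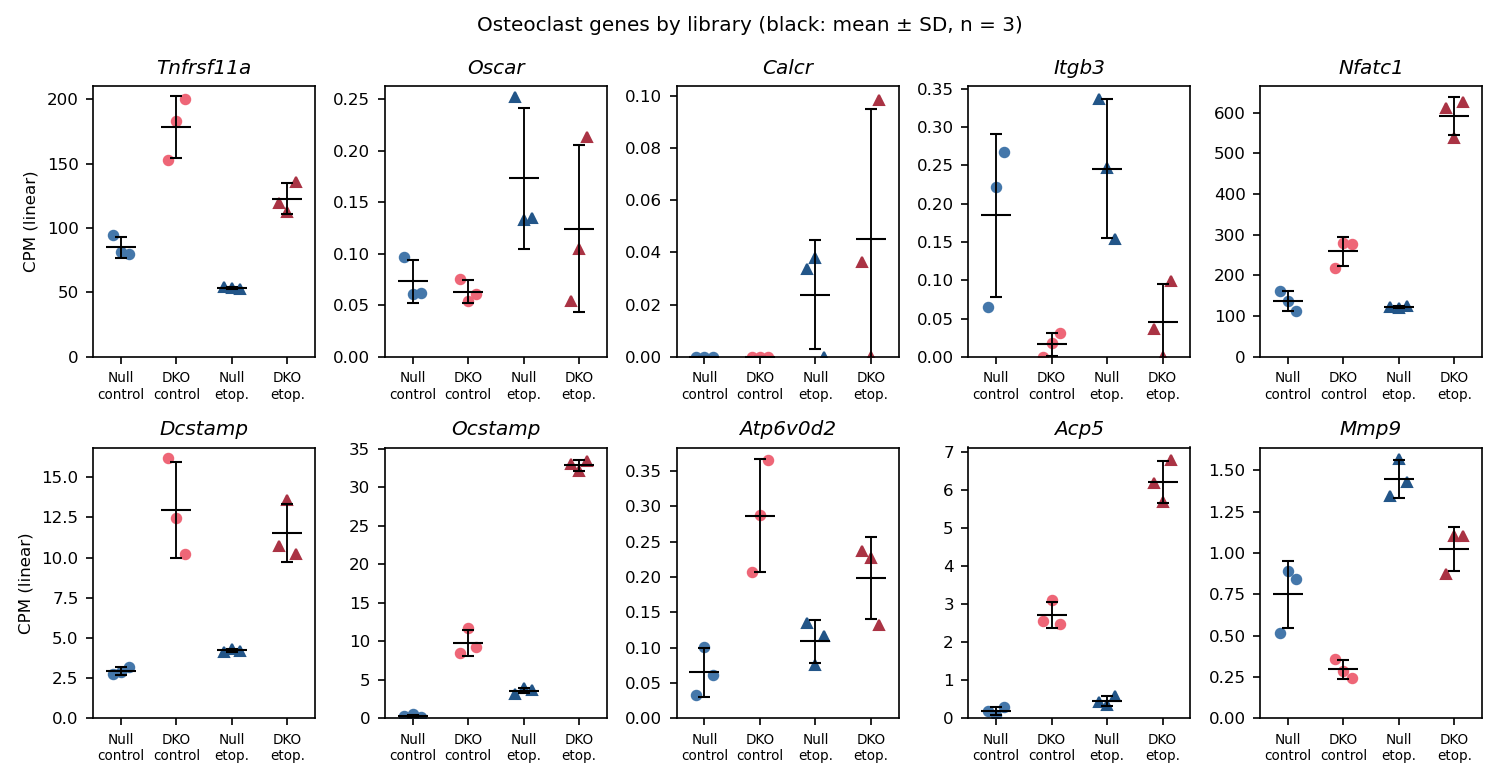
CPM (linear axes that differ between panels) of the 10 osteoclast genes in each library of the 4 groups, with black bars for the mean ± SD (n = 3). For Ocstamp, Acp5, Nfatc1, Tnfrsf11a and Dcstamp the DKO points lie above the Null points of the same treatment without overlap, and for Mmp9 and Itgb3 below them.

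Tnfrsf11a (chromosome 1, 105780718 to 105847981, plus strand, GRCm38), which encodes the receptor RANK, measured 94.2, 81.1 and 79.5 CPM in the 3 Null control libraries and 152.9, 182.7 and 200.5 CPM in the DKO control libraries. After etoposide it measured 53.9, 53.5 and 52.8 CPM in Null and 119.4, 112.5 and 136.1 CPM in DKO cells. No 2 groups overlapped, and the order from high to low was DKO control, DKO etoposide, Null control and Null etoposide. Its mean was 2.10-fold higher in DKO than in Null control cells (log2 difference 1.07, SE 0.107, adjusted p = 1.17e-05). After etoposide the gap was 2.30-fold (adjusted p = 2.57e-06). Etoposide lowered it in both genotypes, 1.59-fold in Null (adjusted p = 3.25e-04) and 1.46-fold in DKO cells (adjusted p = 0.00153). It was the only one of the 8 tested genes called lower after etoposide in either genotype.

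The other receptors were rare. Itgb3 (chromosome 11, 104608000 to 104670476, plus strand), the β3 integrin that anchors osteoclasts to bone, had 2, 11 and 13 counts in the Null control libraries and 0, 1 and 1 in the DKO control libraries. After etoposide it had 20, 13 and 8 counts in Null and 2, 0 and 6 in DKO cells. The lowest Null library was above the highest DKO library under both treatments, though only by 1 or 2 counts. The 26 counts of the Null control group against 2 gave a ratio of normalized counts of 14.3, with a 95% counting interval from 3.58 to 124.3. After etoposide 41 counts against 8 gave 5.40, from 2.50 to 13.4. The fitted log2 differences were -1.60 (SE 0.458, adjusted p = 0.0272) and -1.62 (adjusted p = 0.0163). The control call was lost on leaving out Null control replicate 2 (adjusted p = 0.105) or 3 (0.107), or DKO control replicate 1 (0.0579) or 2 (0.0654). The etoposide call was lost without Null etoposide replicate 1 (adjusted p = 0.0713) or DKO etoposide replicate 2 (0.0706).

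Oscar (chromosome 7, 3609813 to 3616157, minus strand), an ITAM-coupled collagen receptor, and Calcr (chromosome 6, 3685680 to 3764714, minus strand), the calcitonin receptor of mature osteoclasts, were too rare to test. Oscar had 3, 3 and 3 counts in Null and 4, 3 and 2 in DKO control libraries, and after etoposide 15, 7 and 7 in Null and 3, 6 and 13 in DKO cells, so the genotypes overlapped under both treatments. Calcr had no count in any of the 6 control libraries, which allows up to 0.0111 CPM over them (3 counts, counting error only). It had 2, 2 and 0 counts in Null and 2, 0 and 6 counts in DKO cells after etoposide. A genotype difference in these 2 genes was not detectable at this depth.

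Nfatc1 (chromosome 18, 80606205 to 80713071, minus strand), the transcription factor on which osteoclast formation depends, measured 162.7, 137.7 and 112.2 CPM in Null control and 219.1, 279.5 and 278.4 CPM in DKO control libraries. After etoposide it stayed at 121.3, 120.9 and 125.6 CPM in Null cells and reached 611, 537.8 and 626.7 CPM in DKO cells. The Null control and Null etoposide libraries overlapped, and the 3 DKO etoposide libraries stood above every other. DKO control cells had 1.88 times the Null level (log2 difference 0.92, SE 0.131, adjusted p = 2.29e-04), and after etoposide DKO cells had 4.83 times the Null level (log2 difference 2.27, adjusted p = 4.65e-08).

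Nfatc1 did not pass the test for an etoposide response in Null cells (log2 difference -0.15, adjusted p = 0.404), and it rose 2.29-fold in DKO cells (log2 difference 1.20, adjusted p = 1.32e-05). The difference between these responses was tested itself. It was 1.35 on the log2 scale (SE 0.185, adjusted p = 4.58e-04), one of 2 such differences called among the 8 tested genes, 1 in each direction, where 9.45% of all genes were called, 3.07% higher and 6.39% lower.

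The other was Ocstamp (chromosome 2, 165393760 to 165400405, minus strand), a multipass membrane protein that precursors need on their surface to fuse. It measured 0.324, 0.505 and 0.206 CPM (10, 25 and 10 counts) in Null control libraries against 8.49, 11.7 and 9.30 CPM (452, 652 and 305 counts) in DKO control libraries. After etoposide the values were 3.20, 3.88 and 3.74 CPM in Null and 33.1, 32.1 and 33.4 CPM in DKO cells. No 2 groups overlapped, and after etoposide the Null cells stayed below the DKO control cells. Ocstamp had the widest genotype gap of the tested genes in control cells, with means 28.5-fold apart (log2 difference 4.67, SE 0.223, adjusted p = 1.59e-08). After etoposide the means were 9.11-fold apart (log2 difference 3.17, adjusted p = 2.98e-07).

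Etoposide raised Ocstamp in both genotypes, 10.5-fold in Null cells (log2 difference 3.24, adjusted p = 2.84e-07) and 3.34-fold in DKO cells (log2 difference 1.75, adjusted p = 5.05e-05). On the log2 scale the DKO response was smaller, by a difference of -1.496 (SE 0.316, adjusted p = 0.00944). In CPM the step was larger in DKO cells, from 9.83 ± 1.67 to 32.9 ± 0.660, than in Null cells, from 0.345 ± 0.150 to 3.61 ± 0.364 (SD, n = 3), so which genotype responded more depends on the scale. The interaction was called in all 19 alternative fits, with values from -1.77 to -1.23.

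Dcstamp (chromosome 15, 39745930 to 39760938, plus strand) encodes the related membrane protein that fusion also needs. It measured 2.76, 2.89 and 3.20 CPM in Null and 16.2, 12.5 and 10.2 CPM in DKO control libraries. After etoposide it measured 4.15, 4.34 and 4.21 CPM in Null and 10.7, 13.6 and 10.2 CPM in DKO cells. DKO cells were above Null cells in every library under both treatments, and the DKO control and DKO etoposide libraries overlapped. The means were 4.40-fold apart in control cells (log2 difference 2.09, SE 0.160, adjusted p = 1.04e-06) and 2.72-fold apart after etoposide (log2 difference 1.42, adjusted p = 2.11e-05).

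In Null cells Dcstamp rose 1.44-fold with etoposide (log2 difference 0.52, adjusted p = 0.0218). That call did not survive leaving out Null control replicate 1 (adjusted p = 0.0600) or 2 (0.0621), or Null etoposide replicate 1 (0.0561), 2 (0.0649) or 3 (0.0558). In DKO cells the log2 difference was -0.16 (adjusted p = 0.483). The difference between the responses, -0.67, had an adjusted p of 0.0929, and it was called only without DKO control replicate 3 (-0.83, adjusted p = 0.0277).

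**Figure D3:**
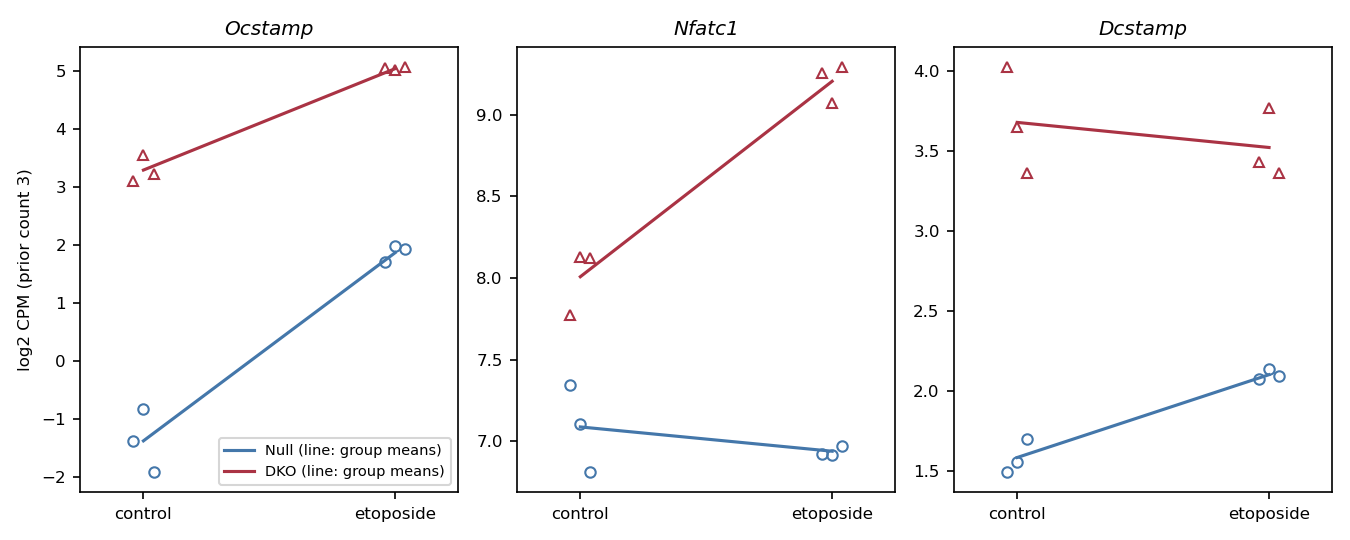
Log2 CPM (prior count 3) of Ocstamp, Nfatc1 and Dcstamp in control and etoposide libraries, with 3 points per group and lines joining the group means of Null (circles) and DKO cells (triangles). The lines converge for Ocstamp, whose response in DKO cells was smaller by a difference of -1.496, and diverge for Nfatc1, whose response was larger by 1.35, and for Dcstamp the difference of -0.67 was not called.

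Atp6v0d2 (chromosome 4, 19876841 to 19922605, minus strand), a subunit of the vacuolar proton pump that is also needed for fusion, was rare. It had 1, 5 and 3 counts in Null control and 11, 16 and 12 in DKO control libraries, without overlap. After etoposide it had 8, 4 and 6 counts in Null and 13, 13 and 8 in DKO cells. The means differed 4.41-fold in control cells (0.287 ± 0.0797 against 0.0651 ± 0.0344 CPM, log2 difference 1.49, SE 0.320, adjusted p = 0.00511). After etoposide the log2 difference was 0.61, with a 95% interval from -0.09 to 1.304 (adjusted p = 0.172).

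Acp5 (chromosome 9, 22126727 to 22135711, minus strand) encodes tartrate-resistant acid phosphatase, the classical stain for osteoclasts. It had 0.195, 0.0808 and 0.289 CPM (6, 4 and 14 counts) in Null control libraries and 2.57, 3.11 and 2.47 CPM in DKO control libraries. After etoposide it had 0.437, 0.341 and 0.598 CPM in Null and 6.20, 5.69 and 6.79 CPM in DKO cells. No 2 groups overlapped, and the groups stood in the same order as for Ocstamp, with Null control lowest and DKO etoposide highest.

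The Acp5 means were 14.5-fold apart in control cells (log2 difference 3.58, SE 0.296, adjusted p = 2.15e-06) and 13.6-fold apart after etoposide (log2 difference 3.63, adjusted p = 1.13e-06). Etoposide raised Acp5 2.44-fold in Null (adjusted p = 0.00876) and 2.29-fold in DKO cells (adjusted p = 0.00688). The difference between the responses was 0.05 on the log2 scale (adjusted p = 0.972), and its sign changed between alternative fits, which ran from -0.25 to 0.41.

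Acp5 is shown with sequence because TFEB and TFE3 bind variants of an E-box, and of the 4 osteoclast genes with promoters in the RefSeq table used (Acp5 with 3 starts, Calcr with 2, Oscar and Tnfrsf11a with 1 each) only 1 Acp5 start had a MiT/TFE motif in the 250 bases before it. The stretch runs from 150 to 31 bases before that start, within the annotated gene and outside its exons, on the minus strand of GRCm38.p6 at chr9:22130629-22130748. Capitals mark the match to TCANGTGA, which is read on the strand opposite to the one printed.

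Acp5 promoter stretch: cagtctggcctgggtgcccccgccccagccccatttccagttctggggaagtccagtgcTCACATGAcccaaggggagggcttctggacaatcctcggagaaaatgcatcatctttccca

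The motif TCANGTGA, searched on both strands, was present before 3.46% of 32817 starts in that table. The canonical E-box CACGTG (6.02% of starts, and partly overlapping with TCANGTGA), the AP-1 motif TGANTCA (6.75%) and the PU.1 motif GAGGAAGT (2.44%) had no match before any of the 7 starts searched. The short NFAT core TTTCC is in 55.6% of all windows and says little about any of them. A match is a description of the letters and not a bound site.

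Mmp9 (chromosome 2, 164940780 to 164955850, plus strand), a secreted gelatinase of migrating osteoclasts and macrophages, was lower in DKO than in Null control cells, as was Itgb3. It had 0.519, 0.888 and 0.845 CPM (16, 44 and 41 counts) in Null control and 0.357, 0.287 and 0.244 CPM (19, 16 and 8 counts) in DKO control libraries. After etoposide it had 1.35, 1.57 and 1.43 CPM in Null and 0.872, 1.10 and 1.10 CPM in DKO cells. The genotypes did not overlap under either treatment, with the Null libraries higher in both.

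The control mean of Mmp9 was 2.54-fold lower in DKO cells (log2 difference -1.17, SE 0.227, adjusted p = 0.00256). After etoposide it was 1.41-fold lower, a difference that did not pass the test (log2 difference -0.48, 95% interval -0.97 to 0.01, adjusted p = 0.127). In a fit of the 2 etoposide groups alone that difference was called (adjusted p = 0.0453). Etoposide raised Mmp9 in both genotypes, 1.93-fold in Null (adjusted p = 0.00601) and 3.46-fold in DKO cells (log2 difference 1.62, adjusted p = 1.12e-04), and the difference between the responses was not called (0.69, adjusted p = 0.252).

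In the comparison of genotypes after etoposide, 6 of the 8 tested genes were called, 5 higher and 1 lower in DKO cells, where 33.6% of all genes tested were called, 15.9% higher and 17.8% lower. The genes that were higher were Ocstamp, Dcstamp, Nfatc1, Acp5 and Tnfrsf11a, and Itgb3 was lower. The libraries of 7 genes, these and Mmp9, did not overlap between the genotypes, against 55.6% of all genes. Etoposide itself changed 5 of the 8 tested genes in Null cells, 4 up (Ocstamp, Dcstamp, Acp5 and Mmp9) and Tnfrsf11a down, against 39.6% of all genes tested, 20.9% up and 18.7% down. The libraries of these 5 did not overlap between treatments, against 53.0% of all genes. In DKO cells it also changed 5, with Nfatc1, Ocstamp, Acp5 and Mmp9 up and Tnfrsf11a down, against 39.3% of all genes, 20.2% up and 19.1% down. The libraries of these 5 did not overlap either, against 46.4% of all genes. Both genotype comparisons share libraries with both etoposide comparisons, so these counts are not independent of each other.

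**Figure D4:**
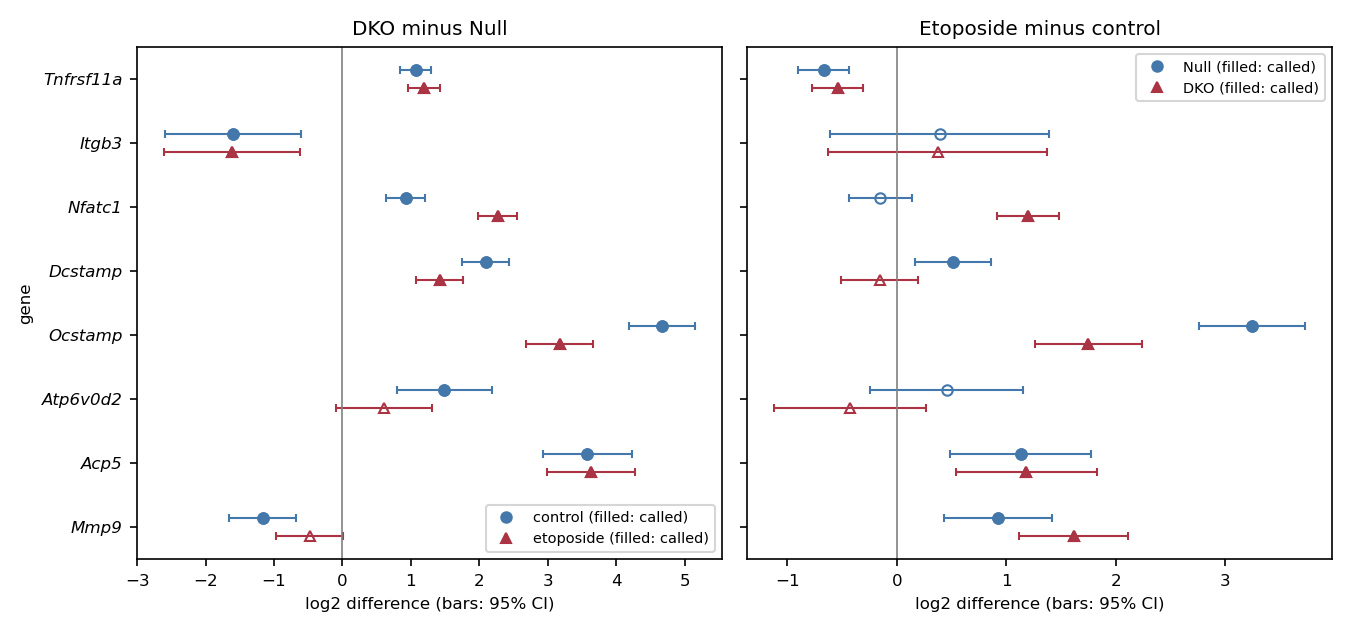
Fitted log2 differences with 95% intervals for the 8 tested osteoclast genes, DKO minus Null on the left (control as circles, etoposide as triangles) and etoposide minus control on the right (Null as circles, DKO as triangles), with filled symbols for called differences. Ocstamp lies furthest right in the control genotype comparison at 4.67, Mmp9 and Itgb3 lie left of 0, and Tnfrsf11a is left of 0 in both etoposide responses.

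The genes whose profiles over the 12 libraries came closest to those of the fusion proteins were searched among all tested genes, by the root mean square (RMS) distance between log2 CPM profiles centred on their own means. The closest to Ocstamp were Plet1os (RMS 0.305), Slc45a3 (0.438), Ptpn5 (0.440), Flnc (0.527) and Gm20412 (0.609). Flnc, the actin crosslinker filamin C, had means of 1.78 CPM in Null and 19.2 in DKO control cells, and of 9.08 in Null and 81.3 in DKO cells after etoposide. Ptpn5, a tyrosine phosphatase, had 0.801 and 12.3 CPM in control cells and 5.08 and 69.8 CPM after etoposide. Plet1os, Slc45a3 and Gm20412 overlap other counted genes, and the reads of Gm29103 (on the same strand as Slc45a3) and of Tgm2 could account for up to 42.8% and 37.7% of the counts of Slc45a3 and Gm20412 respectively, and those of Plet1 for up to 12% of the counts of Plet1os.

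The closest to Dcstamp were Dnajc22 (RMS 0.203), Ninj1 (0.213), Arhgef12 (0.236), Pde2a (0.256) and Aph1b (0.257). Ninj1, a membrane protein of cell adhesion and plasma membrane rupture, had 17.3 CPM in Null and 51.8 in DKO control cells, and 18.6 and 55.7 CPM after etoposide. Arhgef12, an exchange factor for RhoA, had 18.6 and 71.6 CPM in control cells and 30.5 and 84.1 CPM after etoposide. Reads of Gm45837, on the same strand, could account for all the counts of Pde2a. Among the osteoclast genes themselves Ocstamp came nearest to Acp5 (RMS 0.946), with 32 of the 18066 genes tested closer. Dcstamp came nearest to Atp6v0d2 (0.513), with 217 closer. These were picked from the 8 tested osteoclast genes and the genes above from all tested genes, so the sizes of the distances cannot be set against each other.

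The surrounding pathway was read from 5 further lists of genes. Their counts stand beside 10.9% of all genes called higher and 8.39% lower in DKO control cells, and 15.9% higher and 17.8% lower after etoposide. Of 16 genes of RANK signalling and osteoclast transcription factors 15 were tested, and 7 were higher and 2 lower in DKO control cells, with a median log2 difference of 0.26 against -0.00 over all genes. After etoposide 6 were higher and 3 lower (median 0.21 against -0.01). No gene called lower in this list reached an absolute log2 difference of 1, the threshold for naming. The genes named from it are therefore all higher ones and do not stand for the whole list. Fos, the AP-1 subunit without which no osteoclast forms, had 15.9 CPM in Null and 73.6 in DKO control cells, and 52.4 and 133.1 CPM after etoposide. The log2 differences between genotypes were 2.19 in control (adjusted p = 5.74e-07) and 1.33 in etoposide-treated cells (adjusted p = 3.07e-05). Fosl2, another AP-1 subunit, was also higher, by 1.06 and 0.62 (adjusted p = 7.39e-06 and 4.22e-04). Spi1, the macrophage factor PU.1, was higher by 0.56 and 1.01 (adjusted p = 2.01e-04 and 7.16e-07).

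Rcan1, a regulator of calcineurin and a known NFAT target, stood at 16.2 CPM in Null and 46.0 in DKO control cells, and at 21.3 and 180.5 CPM after etoposide. It was higher in DKO cells by 1.49 on the log2 scale in control (adjusted p = 9.34e-07) and by 3.08 after etoposide (adjusted p = 8.02e-10). The etoposide response of Rcan1 was larger in DKO cells by 1.58 (adjusted p = 3.23e-05), in the same direction as that of Nfatc1.

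The ITAM branch showed its largest differences downwards. Of 10 co-stimulatory ITAM receptors and kinases, all tested, none was higher and 3 were lower in DKO control cells (median log2 difference -0.10 against -0.00 over all genes), and 3 were higher and 2 lower after etoposide (median 0.08 against -0.01). Syk, the kinase that ITAM receptors recruit, had 87.5 CPM in Null against 9.51 in DKO control cells (log2 difference -3.21, adjusted p = 2.00e-09), and stood at 98.3 in Null against 12.3 CPM in DKO cells after etoposide (log2 difference -2.995, adjusted p = 1.63e-09). Blnk, an adaptor that Syk phosphorylates, was lower by 2.41 on the log2 scale in control (83.4 against 15.6 CPM, adjusted p = 5.95e-10). After etoposide the Blnk gap was -0.50 (75.3 against 53.1 CPM, adjusted p = 3.10e-04), and its etoposide response differed between genotypes by 1.91 (adjusted p = 2.26e-07).

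Of 10 brakes on osteoclast formation 9 were tested, with 3 higher and 4 lower in DKO control cells (median -0.17 against -0.00 over all genes) and 4 higher and 2 lower after etoposide (median 0.21 against -0.01). Irf8, a repressor of Nfatc1, had 68.2 CPM in Null and 51.1 in DKO control cells and 37.3 and 17.8 CPM after etoposide, with log2 differences between genotypes of -0.42 (adjusted p = 0.00145) and -1.07 (adjusted p = 2.82e-07) and a difference between the etoposide responses of -0.65 (adjusted p = 0.00158). Tnfaip3, the NF-κB inhibitor A20, was lower in DKO cells by 0.85 on the log2 scale in control (adjusted p = 6.22e-05) and by 2.06 after etoposide (adjusted p = 1.33e-08). Lgr4, a second receptor for RANKL, was higher by 1.10 in DKO control cells (adjusted p = 0.0218), a call lost without Null control replicate 2 (adjusted p = 0.0935), DKO control replicate 1 (0.0595) or DKO control replicate 2 (0.0605) and in a fit of the 2 control groups alone (0.0991).

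Of 11 fusion and adhesion partners 10 were tested, with 5 higher and 1 lower in DKO control cells (median log2 difference 0.43 against -0.00 over all genes) and 6 higher and 1 lower after etoposide (median 0.45 against -0.01). Adam8, a membrane protease that promotes fusion, had 199 CPM in Null and 620 in DKO control cells, and 369 and 1085 CPM after etoposide. Cd44, a hyaluronan receptor, had 155 and 419.9 CPM in control cells and 287 and 614 CPM after etoposide. The tetraspanin Cd9 had 114 and 229.9 CPM in control cells and 91.3 and 264 CPM after etoposide. All 3 were called higher in DKO cells under both treatments, by 1.64 and 1.56 on the log2 scale for Adam8, 1.44 and 1.10 for Cd44 and 1.00 and 1.53 for Cd9. Sirpa, a receptor on macrophages that binds CD47 on a fusing partner, was the member that was lower, at 84.6 against 359 CPM in control (adjusted p = 5.86e-10) and 67.5 against 203 CPM after etoposide (adjusted p = 2.48e-09).

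The 13 genes of the bone resorption machinery, all tested, were divided, with 2 higher and 3 lower in DKO control cells (median 0.02 against -0.00 over all genes) and 4 higher and 2 lower after etoposide (median 0.00 against -0.01). Car2, the carbonic anhydrase that supplies protons for acidification, had 877 CPM in Null control against 175 in DKO control cells (log2 difference -2.33, adjusted p = 6.15e-08), and 800.5 against 466 CPM after etoposide (-0.79, adjusted p = 4.75e-04). Its etoposide response was larger in DKO cells by 1.54 (adjusted p = 1.42e-04). Src, the kinase of the ruffled border, had only 3 counts over the Null control libraries against 18 in DKO control cells, a ratio of 5.46 with a 95% counting interval from 1.59 to 28.9. Its control call (log2 difference 1.24, adjusted p = 0.0199) was lost without Null control replicate 1 (adjusted p = 0.0627) or 2 (0.0534) or DKO control replicate 1 (0.0526) or 3 (0.0783), and its etoposide call (1.12, adjusted p = 0.0215) without Null etoposide replicate 1 (0.0889) or DKO etoposide replicate 1 (0.0797) and with a prior count of 0.5 (0.151).

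**Figure D5:**
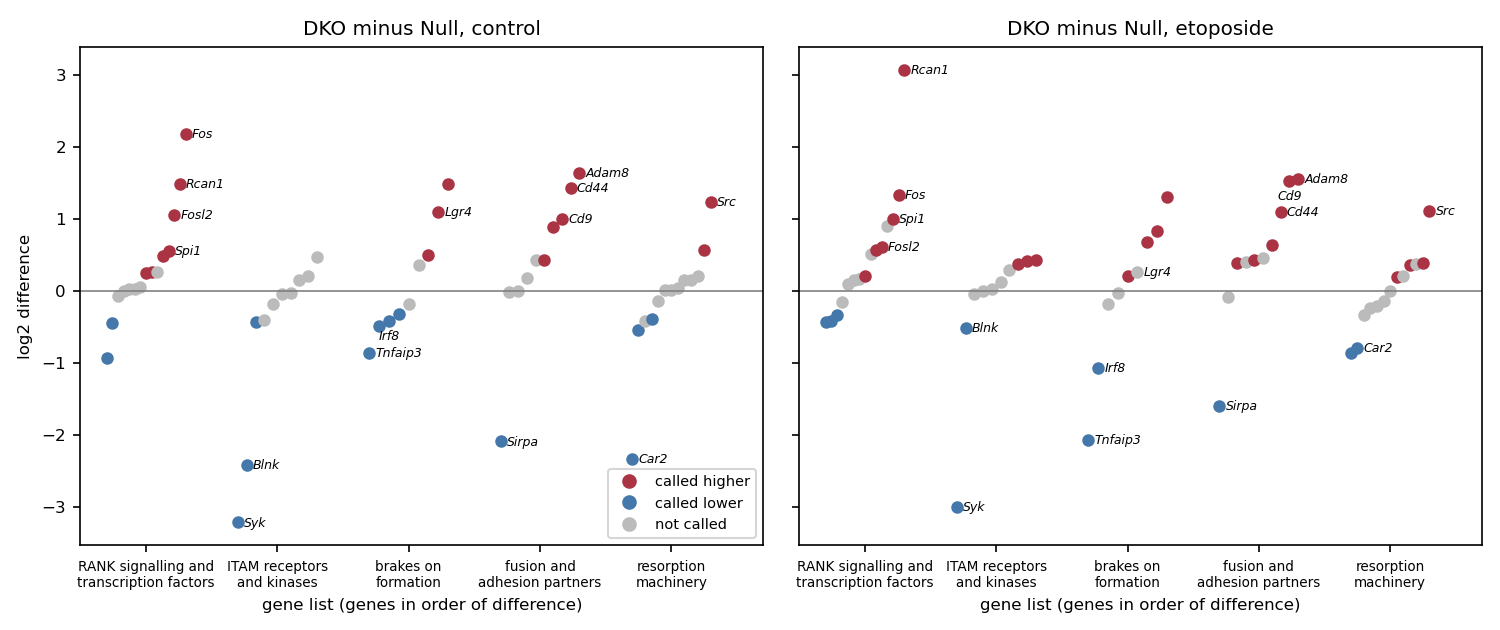
Fitted log2 differences, DKO minus Null, in control (left) and etoposide-treated cells (right) for the tested genes of the 5 pathway lists, in order of difference within each list and coloured by whether the difference was called. Syk lies near -3 in both panels, Rcan1 moves from 1.49 to 3.08, and the resorption list holds called differences in both directions in both panels.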

How the data were processed

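According to the study's methods, stranded libraries were made from total RNA after removal of ribosomal RNA. The authors aligned read pairs with HISAT2 and counted those mapping once to GENCODE genes with HTSeq. The submitters' processing notes name featureCounts and mm10. The strand setting and annotation release are not given in the sources used here. The deposited table holds raw gene counts, not normalized, for 12 libraries. Genes with near-identical copies lose counts when only unique pairs are kept. The labels name 2 RNA kits and do not assign them to libraries.

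Symbols and coordinates came from GENCODE M21, by identifier (32501 of 32688 matched). No osteoclast gene shares exons with another counted gene. For others, the possible share of a neighbour's reads was its read density times the shared exon length. The filter was filterByExpr from edgeR 4.0.16, which left 18066 genes with 99.96% of counts. Libraries were TMM-scaled (a trimmed mean of log ratios), and counts were converted to log2 CPM with a prior count of 3 and tested by limma-trend (limma 3.58.1, R 4.3.3) with robust empirical Bayes moderation in 1 model of the 4 groups. Tests were two-sided with Benjamini-Hochberg adjustment over all genes tested, called under 0.05. Fold values are ratios of mean CPM. Log2 differences carry the prior count and understate changes of rare genes. The fit was tested on simulated data. The 5 contrasts were DKO against Null in control and in etoposide-treated cells, etoposide against control in each genotype, and the interaction, which is the DKO response minus the Null response. Counting intervals and floors cover counting error only. Replicates differed by 3.40 to 53.6 times counting error, so none was a repeat of 1 library.

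The 10 genes, the 5 pathway lists and the marker lists were chosen with earlier results of these data known. Pathway genes were named if called between genotypes with a log2 difference of at least 1, at most 6 per list, and for Ocstamp and Dcstamp the 5 closest profiles were named. A gene that this rule names is not reported here. Alternatives were DESeq2 (1.42.0) size factors, library size alone, no filter, a prior count of 0.5, the edgeR quasi-likelihood test, DESeq2, a replicate block, fits of 2 groups and leaving out each library.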

Additional observations from a re-analysis of the deposited data

Results flagged for a closer look

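Among the osteoclast genes, 2 had an etoposide response that differed between the genotypes by the test of the difference itself (limma-trend interaction, Benjamini-Hochberg adjustment). For Ocstamp the log2 response of DKO cells was that of Null cells plus -1.496 (adjusted p = 0.00944), with all 3 libraries higher after etoposide in both genotypes. For Nfatc1 it was that of Null cells plus 1.35 (adjusted p = 4.58e-04), with all 3 DKO etoposide libraries above all 3 DKO control libraries and overlapping libraries in Null cells.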

How the results depend on the processing

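The number of osteoclast genes called stayed within 1.5 times its value in all alternatives that tested the same genes. It was 8 in the control genotype comparison (7 to 8 on leaving out a library, and 6 of 6 tested in a fit of those 2 groups), 6 after etoposide (5 to 6), 5 for etoposide in Null cells (4 to 5), 5 in DKO cells (5 to 5) and 2 for the interaction (2 to 3). Replicate numbers did not pair the libraries: only 1 of 18 same-numbered pairs deviated together (correlation over 0.1, range -0.542 to 0.394), 2 of 12 libraries matched best with their own number, and with the replicate block the counts were again 8, 6, 5, 5 and 2. Pairs with different numbers ran from -0.49 to 0.58, so some libraries of different groups did deviate together. The source of that shared deviation was not tested. Over all genes, the control comparison called 3490 genes, and 2031 in a fit of those 2 groups, which has fewer libraries. Scaled by library size alone, 43.4% of these calls were higher in DKO cells, against 56.6% with TMM, and the median of all genes moved by under 0.1. Directions that reversed belonged to differences that were not called. The Itgb3 etoposide difference in Null cells (0.39) ran from -0.04 to 0.66 on leaving out a library, and that of Dcstamp in DKO cells (-0.16) from -0.31 to 0.022. The Acp5 interaction (0.05) became -0.17 with a prior count of 0.5, -0.093 with edgeR and -0.092 with DESeq2, and ran from -0.25 to 0.41 on leaving out a library. The Itgb3 interaction (-0.02) became 0.19 with a prior count of 0.5, 1.20 with edgeR and 1.31 with DESeq2, and ran from -0.36 to 0.42. The causes were not tested. Depth limits Oscar, Calcr, Itgb3 and Atp6v0d2, which had at most 20 counts in every library.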
